A study of Mus musculus with 4 samples.

Results

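Interferon-stimulated genes are the transcripts that cells make in large amounts after interferon reaches its receptors. A fixed list of 37 such genes was looked up by gene symbol in a table of 23275 entries that compared B220+CD43+ bone marrow cells with and without Hdac3. All 37 were found, and all 37 were among the 12683 entries that the authors tested, so no filter on low values removed a member. The polyadenylated RNA came from C57BL/6 mice aged 8 weeks, in 2 libraries per genotype, each from the sorted marrow cells of 2 mice. The wild-type group was Hdac3+/+ Mb1cre+/-, and the Hdac3-deleted group was Hdac3F/- Mb1cre+/-, with 1 conditional and 1 null allele. Both groups carry the Mb1cre recombinase, which is driven from the Cd79a locus and is active in the B lineage. Other cells of the sort would therefore keep the conditional allele, but in the Hdac3-deleted group they also carry the null allele.

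Type I interferons signal through IFNAR1 and IFNAR2, and interferon gamma through IFNGR1 and IFNGR2. Both receptors use JAK kinases. Type I signalling acts mainly through the interferon-stimulated response element (ISRE) in promoters, and gamma signalling through the gamma-activated site (GAS). The induced proteins degrade or sense foreign RNA, block translation, tag proteins with ISG15, or attack pathogen-containing vacuoles. Plasmacytoid dendritic cells, which can share the B220 surface marker, are the best-known producers of type I interferon.

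The promoters of 6 members are shown because 4 of these genes passed the test and the other 2 are classical targets that did not. Each stretch runs 5′ to 3′ on the gene's own strand from 110 bases before the RefSeq start to 10 bases into the gene, in the GRCm38.p6 build. Capitals mark the ISRE core, which was searched as GAAA, any 2 bases, then GAAA, on both strands. The stretches are chr3:142530226-142530345 (+) for Gbp7, chr3:142559934-142560053 (+) for Gbp3 and chr3:142620553-142620672 (+) for Gbp2. They are chr11:72301519-72301638 (+) for Xaf1, chr4:156200809-156200928 (-) for Isg15 and chr19:34640779-34640898 (+) for Ifit1.
Gbp7: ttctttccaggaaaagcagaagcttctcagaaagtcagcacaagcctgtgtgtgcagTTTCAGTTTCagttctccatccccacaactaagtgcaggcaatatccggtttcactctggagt
Gbp3: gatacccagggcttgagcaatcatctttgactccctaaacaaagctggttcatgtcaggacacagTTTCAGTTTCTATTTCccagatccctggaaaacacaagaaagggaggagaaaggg
Gbp2: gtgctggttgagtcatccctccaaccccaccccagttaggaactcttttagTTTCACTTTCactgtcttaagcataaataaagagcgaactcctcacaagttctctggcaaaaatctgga
Xaf1: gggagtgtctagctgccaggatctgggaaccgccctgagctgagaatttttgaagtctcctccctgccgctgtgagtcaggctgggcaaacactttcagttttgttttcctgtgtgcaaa
Isg15: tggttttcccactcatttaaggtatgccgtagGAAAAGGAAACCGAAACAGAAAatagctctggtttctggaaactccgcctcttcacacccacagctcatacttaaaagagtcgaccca
Ifit1: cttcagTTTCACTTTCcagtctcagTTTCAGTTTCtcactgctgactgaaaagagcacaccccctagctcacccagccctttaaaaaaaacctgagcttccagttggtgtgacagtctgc

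RefSeq windows of 250 bases before to 50 after the start were matched to 27 of the 37 members. The ISRE core was present in 16 of these 27, or 59.3%, against 3.99% of the 27025 genes with such a window. The shorter GAS core, TTCNNNGAA, was present in 8 of the 27, or 29.6%, against 9.55% of all genes. No ISRE match overlapped a GAS match in a member, and 4 members held both. In Gbp7 the ISRE core lay 53 to 44 bases before the start, with GAS cores at 106 to 98 and 87 to 79 bases before it. Gbp2 had its ISRE core 59 to 50 bases before the start, and Gbp3 had overlapping cores within 45 to 30 bases before it. Isg15 held 3 overlapping cores and Ifit1 held 2 separate ones. Xaf1 showed neither sequence in its window. A match is a string of letters and not a measured binding site. Members with the ISRE core had a median log2 fold change of 0.19, with 3 of 16 called, and members without it had 0.26, with 1 of 11 called. Rtp4, which was also called, had no window and is in neither group.

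In Hdac3-deleted cells 5 of the 37 genes rose and 0 fell. The risen genes were Xaf1, Rtp4 and the neighbouring guanylate-binding protein genes Gbp7, Gbp2 and Gbp3, by 1.57-fold to 2.93-fold. The classical targets of type I interferon, among them Isg15, Usp18, Mx1, Rsad2, the Ifit genes and the Oas genes, did not pass the test. Levels are in FPKM, fragments scaled to transcript length and sequencing depth, which allows levels of different genes to be compared. The authors deposited 1 FPKM value per genotype, so no value per library and no spread between libraries can be given. A gene was called when the q-value in the authors' deposited table was under 0.05. At that threshold 2.81% of all tested entries were higher, against 13.5% of the members, and 4.14% of all tested entries were lower. The members' share rests largely on the 3 neighbouring Gbp genes. Without the Gbp genes, 2 of 34 members were higher and 0 lower, and the median was 0.19 on the log2 scale. The members were chosen with earlier results of these data known, and whether their share exceeded that of all entries was not tested. With the unadjusted p under 0.05 in the authors' deposited table, 10 members were higher and 1, Ifi204, was lower. The corresponding shares of all tested entries were 8.16% and 8.95%. Cells of 1 sort share their libraries, so the 37 genes are not independent replicates of the comparison.

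The median log2 fold change of the members was 0.22, with quartiles of 0.07 and 0.46, while that of all tested entries was 0.03, with quartiles of -0.19 and 0.24. Fold changes were positive for 30 of 37 members, or 81.1%, and for 53.4% of all tested entries. The 32 members that were not called had a median of 0.18, and 25 of them were positive. For each gene a 95% interval of the log2 fold change was computed from the authors' test statistic, as 1.96 standard errors on either side. These intervals rest on the authors' model and on no spread that could be checked here. They held 0 for all 32 uncalled members, and for 28 of these they lay below a 2-fold rise. Of the uncalled members, 5 with a positive and 1 with a negative fold change had an unadjusted p under 0.05 in the authors' deposited table although their intervals held 0, so the intervals and those p-values do not match exactly. The 4 whose intervals reached a 2-fold rise were Dtx3l, Ifi203, Zbp1 and Parp9.

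**Figure D1:**
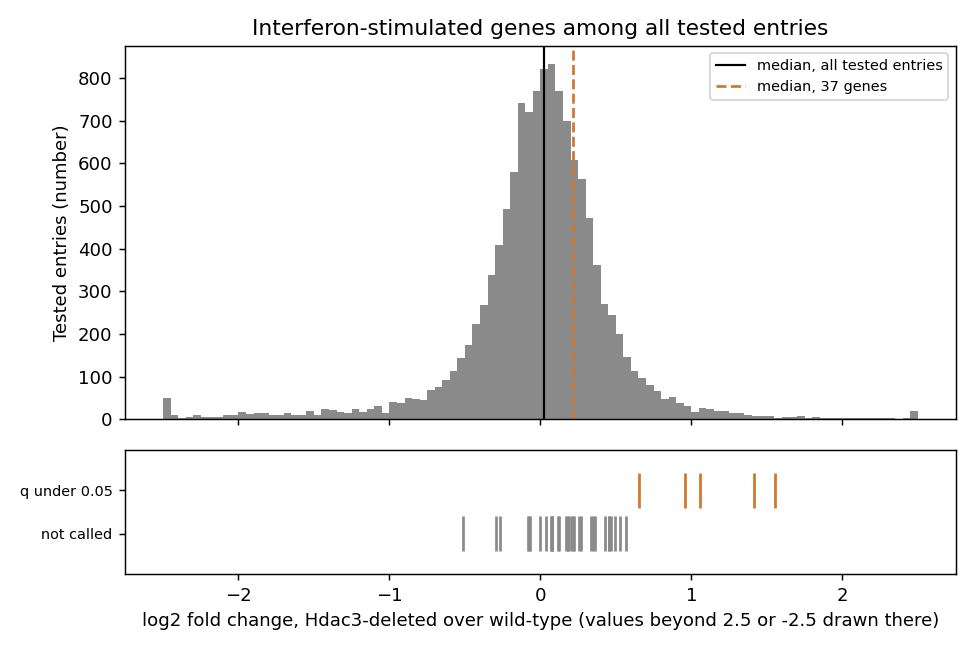
Histogram of the log2 fold change (Hdac3-deleted over wild-type) of tested entries, with the 37 members as ticks below. The upper panel gives the number of entries per bin, and 40 tested entries listed at 0 in 1 genotype are not drawn. The median of the members (dashed) is 0.22 and that of all tested entries 0.03, and the 5 called members lie to the right of the 32 others.

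In wild-type cells the members spanned 1.72 FPKM for Oas2 to 192 FPKM for Ifi27l2a, with a median of 15.8 FPKM. In Hdac3-deleted cells they ran from 1.81 to 159 FPKM, with a median of 17.8 FPKM. The 5 risen genes lay between 5.78 and 10.04 FPKM in wild-type cells, all below the members' median. All 5 belonged to the 17 members with 5 to 20 FPKM in wild-type cells, whose median log2 fold change was 0.35. The 7 members under 5 FPKM had a median of 0.07 and the 13 at 20 FPKM or more had 0.26, with no call in either band. In the same 3 bands 3.49%, 2.63% and 2.43% of all tested entries were higher, from the lowest levels to the highest. The standard error implied by the authors' statistic had a median of 0.34 log2 units for members under 5 FPKM and of 0.27 for those at 20 FPKM or more.

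**Figure D2:**
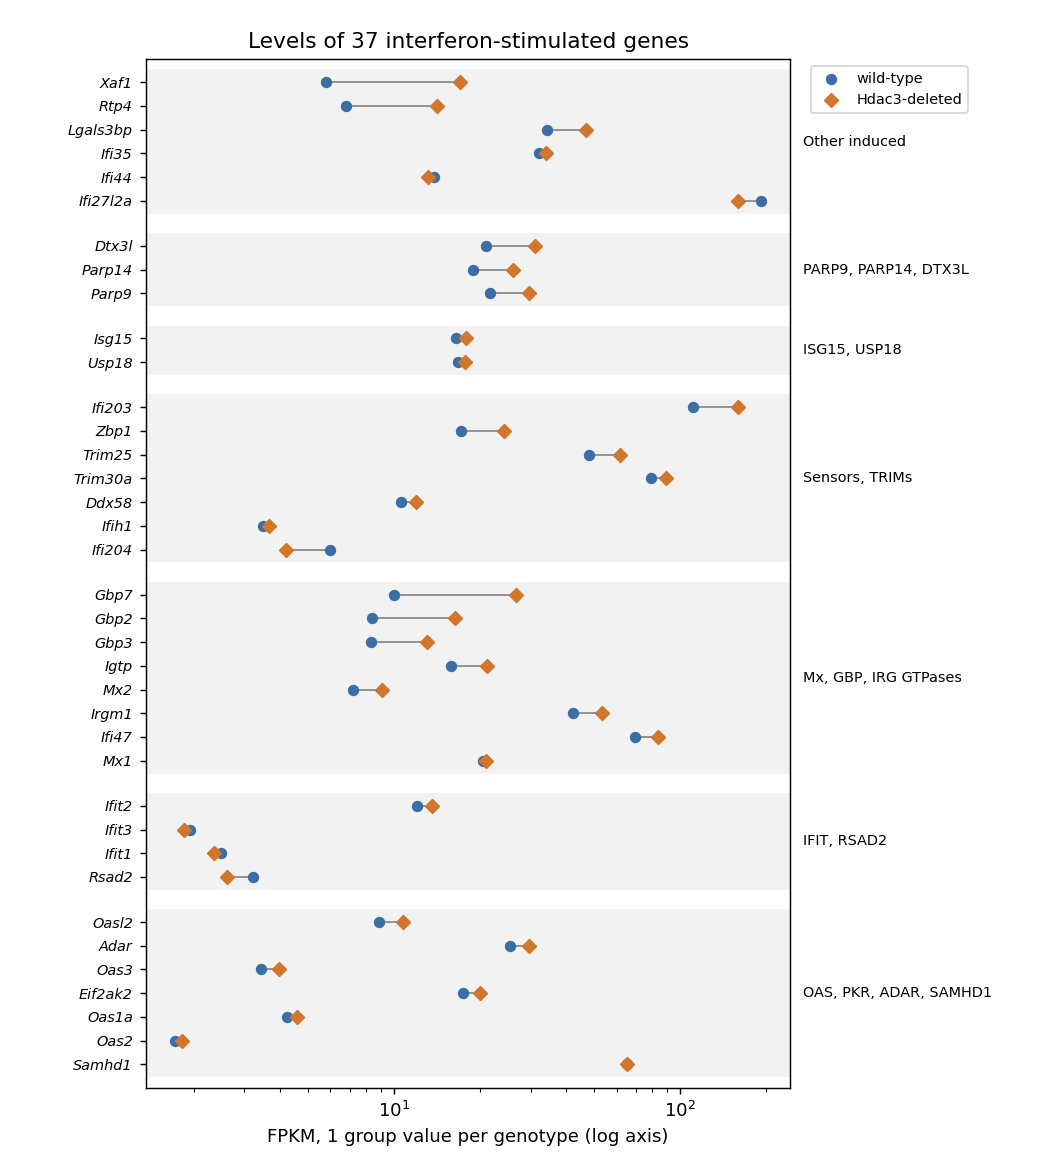
Level of each member in wild-type (circles) and Hdac3-deleted cells (diamonds), in FPKM on a log axis, 1 group value per genotype, ordered by role. The long connecting lines belong to Xaf1, Rtp4, Gbp7, Gbp2 and Gbp3, and the symbols of Isg15, Usp18, Mx1 and Samhd1 nearly coincide.

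The GTPases of the list include guanylate-binding proteins and immunity-related GTPases, which act on the vacuoles of intracellular pathogens, and the Mx proteins, which trap viral components. Of these 8 genes 3 rose, and all 8 fold changes were positive, with a median of 0.39 on the log2 scale. Gbp7 went from 10.04 to 26.8 FPKM, a 2.67-fold rise with a log2 interval of 0.87 to 1.97 (q = 0.00160 in the authors' deposited table). It moved from the 23rd to the 13th highest level among the members. Gbp2 rose 1.95-fold from 8.39 to 16.3 FPKM, with a log2 interval of 0.44 to 1.48 (q = 0.00160 in the authors' deposited table). Gbp3 rose 1.57-fold from 8.32 to 13.1 FPKM, with a log2 interval of 0.12 to 1.19 (q = 0.0347 in the authors' deposited table). The call of Gbp3 was the only one of the 5 that was lost with a stricter threshold of 0.01 or with a normal approximation to the authors' statistic (adjusted p = 0.252).

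The other GTPases did not pass the test. Igtp, which encodes Irgm3, was 15.8 FPKM without and 21.2 FPKM with the deletion, and the pairs of values that follow are in the same order. Irgm1, a regulator of the other immunity-related GTPases and of autophagy, was 42.4 and 53.4 FPKM. Ifi47 was 69.7 and 83.4 FPKM, and its locus is shared in the deposited table with Tgtp2 and 3 further entries. Mx2 was 7.17 and 9.12 FPKM, while Mx1 was 20.5 and 21.0 FPKM. Fold changes of Igtp, Irgm1, Ifi47 and Mx2 thus lay between 1.196 and 1.34, and that of Mx1 was 1.024, with none called.

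The 3 called Gbp members are neighbours on chromosome 3 of the mm10 build. Gbp7 lies at chr3:142530338-142550083, Gbp3 at chr3:142560052-142573212 and Gbp2 at chr3:142620663-142638008. Gbp5, which is no member but lies in the same cluster, rose 1.61-fold from 5.93 to 9.54 FPKM (q = 0.0266 in the authors' deposited table). Gbp1, the remaining Gbp gene there, was listed at 0.0200 FPKM in the wild-type group and at 0 in the Hdac3-deleted group, and was not tested. Thus all 4 tested genes of the 141 kb cluster rose, with log2 fold changes of 0.65 to 1.42. None of the 4 other genes within 300 kb was called, namely Pdlim5, Ccbl2, Gtf2b and Pkn2, whose log2 fold changes lay between -0.44 and 0.08. The second Gbp cluster, on chromosome 5, had 5 tested genes. Of these only Gbp9 rose, 1.55-fold from 16.8 to 26.0 FPKM (q = 0.0185 in the authors' deposited table). Gbp4 was 19.4 and 25.7 FPKM, Gbp6 was 5.24 and 6.73 FPKM, Gbp10 was 0.648 and 1.015 FPKM, and Gbp8 was 12.7 and 11.9 FPKM. Whether the 2 clusters differed was not tested.

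**Figure D3:**
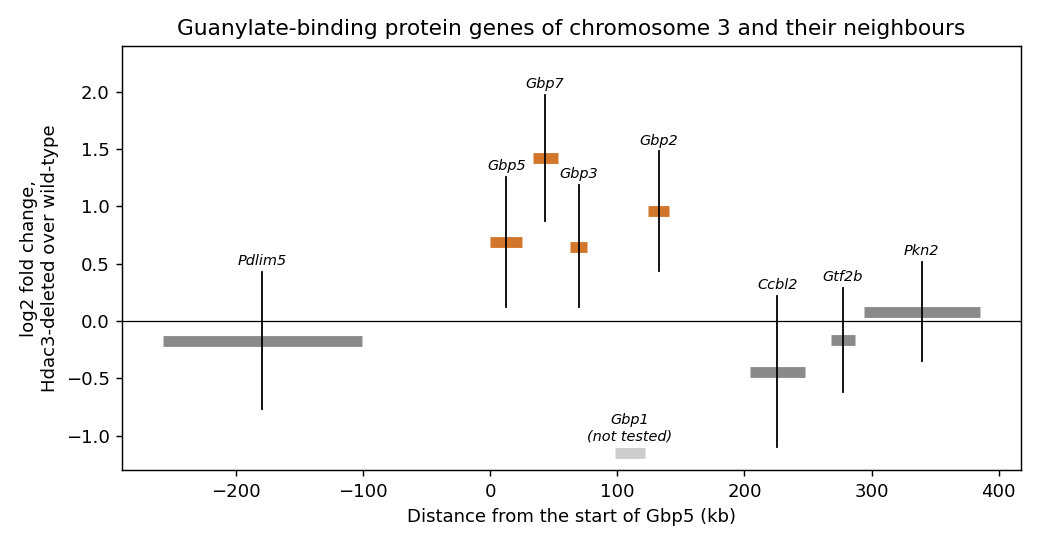
Genes of the chromosome 3 Gbp cluster and its flanks, by distance from the start of Gbp5 in kb (bar width is the gene's extent) and log2 fold change of Hdac3-deleted over wild-type (bar height), with the 95% interval from the authors' statistic as a vertical line. Called genes are orange, and Gbp1, which was not tested, is drawn in light grey at the bottom with no value. The 4 tested Gbp genes lie between 0.65 and 1.42, and the 4 flanking genes between -0.44 and 0.08.

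Gbp genes resemble each other, and no source used here gives how the authors assigned fragments that match several genes. In GENCODE transcripts of the same assembly, 3.75% of the 50-base windows of Gbp3 and 2.03% of those of Gbp2 also occurred in another gene. For Gbp7 the share was 12.7%, of which 10.5 percentage points were shared with the overlapping model Gm43802 and 2.24 with Gbp3. For Xaf1 it was 1.61%, and for Rtp4 11.6%, all of it with the overlapping model Gm45338. Of the 37 members 24 shared fewer than 5% of their windows. The members with 20% or more were Oas1a at 57.6%, mostly with Oas1g, Ifit3 at 51.2% with Ifit3b, and Ifi204 with 703 of 3512 windows. The values of these last 3 genes are uncertain for that reason.

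The group of other induced proteins held the largest rise. Xaf1, a binding partner of the apoptosis inhibitor XIAP, lies at chr11:72301629-72313733. It went from 5.78 to 16.9 FPKM, a 2.93-fold rise with a log2 interval of 0.94 to 2.16 (q = 0.00160 in the authors' deposited table). Rtp4, a chaperone of the receptor-transporting protein family, lies at chr16:23609919-23614222. It went from 6.80 to 14.2 FPKM, a 2.08-fold rise with a log2 interval of 0.44 to 1.68 (q = 0.00160 in the authors' deposited table). The 4 remaining genes of the group were not called. Lgals3bp, a secreted glycoprotein that binds galectins, was 34.3 and 47.0 FPKM. Ifi35 was 32.2 and 34.0 FPKM, and Ifi44 was 13.8 and 13.1 FPKM. Ifi27l2a, the most abundant member in wild-type cells, was 192 FPKM there and 159 FPKM in Hdac3-deleted cells, with a log2 interval of -0.59 to 0.05. In Hdac3-deleted cells its level was nearly the same as that of Ifi203, at 159.2 and 159.4 FPKM. The summed level of the group of other induced proteins was 285 FPKM in both genotypes.

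**Figure D4:**
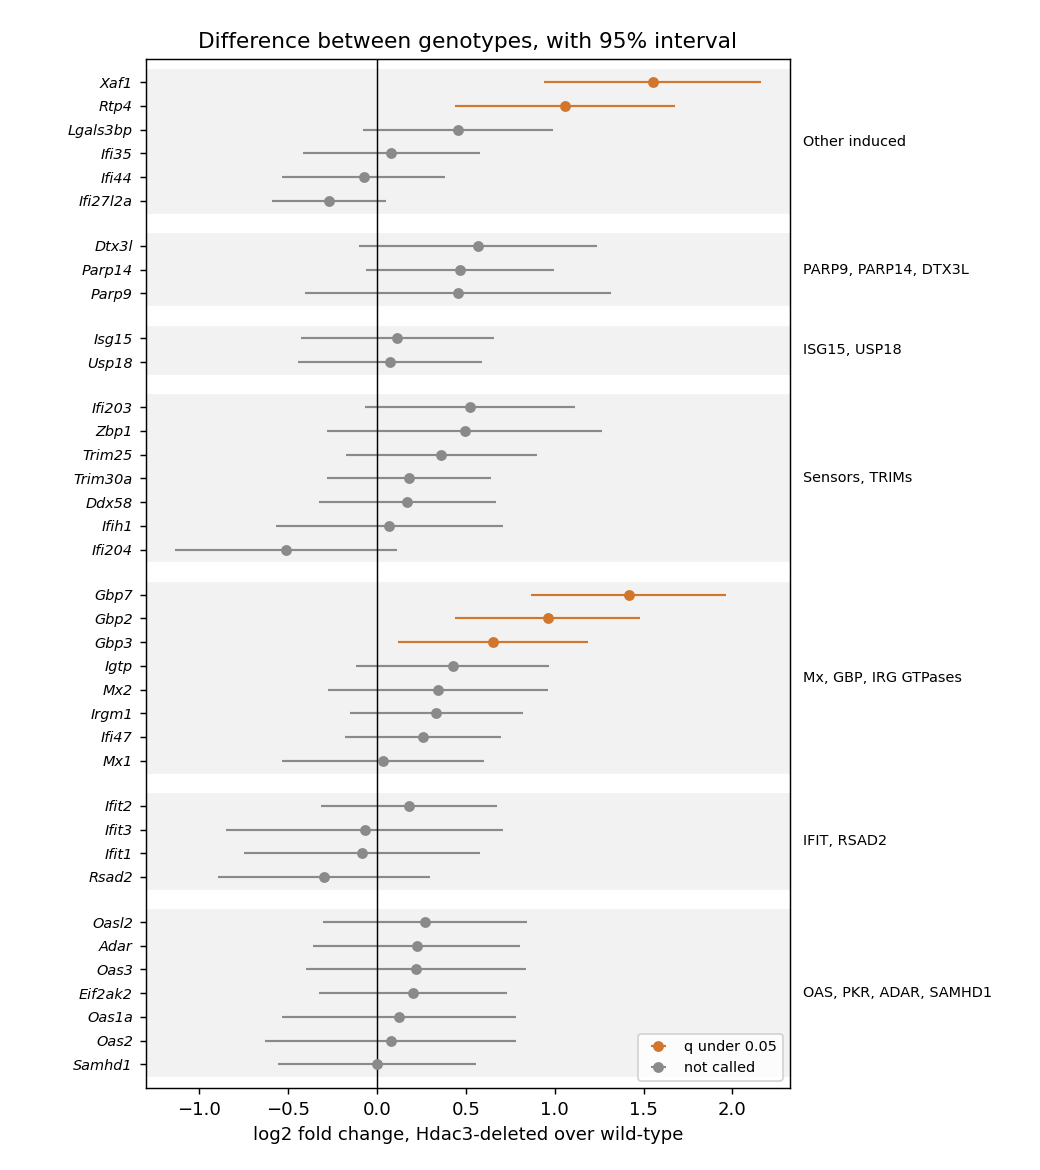
Log2 fold change of each member (Hdac3-deleted over wild-type) with the 95% interval computed from the authors' test statistic, ordered by role, called genes in orange. The intervals of the 5 called genes lie above 0, from a lower end of 0.12 for Gbp3 to an upper end of 2.16 for Xaf1, and those of the other 32 cross 0.

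Effectors that lead to RNA decay or block translation, grouped here with Adar and Samhd1, showed no call among 7 genes. The 2′-5′-oligoadenylate synthetases activate the ribonuclease RNase L when they bind double-stranded RNA. Oas1a was 4.22 and 4.60 FPKM, Oas2 was 1.72 and 1.81 FPKM, Oas3 was 3.42 and 3.98 FPKM, and the related Oasl2 was 8.89 and 10.7 FPKM. Eif2ak2, the kinase PKR that halts translation, was 17.4 and 20.04 FPKM. Adar, which deaminates adenosine in double-stranded RNA, was 25.4 and 29.6 FPKM, and 16.8% of its exonic bases overlap the opposite-strand gene Chrnb2, listed at 0.314 FPKM or less. Samhd1, which hydrolyses deoxynucleotides, was 65.2 FPKM in both genotypes, with a log2 interval of -0.56 to 0.56. The median of these 7 genes was 0.20 on the log2 scale, and every upper end of their intervals was at or below 0.84.

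The Ifit proteins bind foreign RNA caps and ends, and Rsad2 encodes viperin, which makes a chain-terminating nucleotide. These 4 genes had the lowest median of any role group, -0.08 on the log2 scale, with 1 positive value. Ifit1 was 2.48 and 2.34 FPKM, Ifit2 was 12.02 and 13.6 FPKM, Ifit3 was 1.94 and 1.85 FPKM, and Rsad2 was 3.21 and 2.61 FPKM. None was called. Gm14446, an older symbol of Ifit1bl1 and no member, lies between Ifit3 and Ifit1 on chromosome 19. It rose 2.26-fold from 5.28 to 11.97 FPKM (q = 0.00160 in the authors' deposited table). Ifit1 shares 0.614% of its 50-base windows with Ifit1bl1 and 7.06% with Ifit1bl2. Isg15, the ubiquitin-like modifier, was 16.5 and 17.8 FPKM, with a log2 interval of -0.43 to 0.66. Usp18, which removes ISG15 and damps the type I receptor, was 16.8 and 17.7 FPKM, with a log2 interval of -0.44 to 0.59. Their fold changes were 1.08 and 1.05, and neither was called.

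Sensors and their regulators gave no call among 7 genes, with values on both sides of 0. Ifi203, a DNA-binding protein of the HIN-200 family, was 111 and 159.4 FPKM, nearly the same as Ifi27l2a in Hdac3-deleted cells, at 159.2 FPKM. Its paralogue Ifi204 was 5.96 and 4.18 FPKM, the lowest fold change of the list at -0.51 on the log2 scale, with an interval of -1.14 to 0.11. In the same gene cluster on chromosome 1, Mndal, which is no member, rose 1.52-fold from 131 to 199 FPKM (q = 0.0462 in the authors' deposited table). Zbp1, a sensor of Z-form nucleic acid that triggers necroptosis, was 17.2 and 24.2 FPKM. The cytoplasmic RNA helicases Ddx58, encoding RIG-I, and Ifih1, encoding MDA5, were 10.6 and 11.9 FPKM and 3.49 and 3.66 FPKM. Trim25, a ubiquitin ligase that acts on RIG-I signalling, was 48.0 and 61.6 FPKM, and Trim30a was 79.0 and 89.5 FPKM.

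Parp14, Parp9 and Dtx3l are a set of ADP-ribosyltransferases and a ubiquitin ligase partner, and they had similar values. Parp14 was 18.9 and 26.1 FPKM, Parp9 was 21.6 and 29.6 FPKM and Dtx3l was 21.0 and 31.1 FPKM. Their log2 fold changes were 0.47, 0.46 and 0.57, and none was called (q = 0.156, 0.493 and 0.192 in the authors' deposited table). Parp9 and Dtx3l share a locus in that table and overlap on opposite strands over 458 exonic bases, so their fragments cannot be fully told apart without strand. Together these 3 genes had the highest median of any role group, 0.47, with the widest interval for Parp9, -0.41 to 1.32.

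Upstream of the members, most genes of the pathway were measured and few passed the test. Of all tested entries 2.81% were higher and 4.14% were lower. Among the 21 interferon ligand genes found in the table, 1 was tested. Ifng fell 2.44-fold from 7.69 to 3.15 FPKM (q = 0.00290 in the authors' deposited table). Of the 20 untested ligand genes, 14 were listed at 0 in both genotypes, and Ifnb1 was 0.0997 and 0.0657 FPKM. Of 16 tested receptor and signalling genes 1 rose and 0 fell, with a median log2 fold change of 0.29. Ifngr2, the signalling chain of the gamma receptor, rose 1.87-fold from 30.1 to 56.2 FPKM (q = 0.00160 in the authors' deposited table). Ptpn6, Jak1 and Ifnar2, the most abundant genes of that list, were 181 and 193 FPKM, 85.1 and 108 FPKM, and 81.5 and 108 FPKM. Ifnar1 was 31.6 and 47.9 FPKM and just missed the threshold (q = 0.0512 in the authors' deposited table). Stat2 and Irf9, which are induced by interferon themselves, were 44.6 and 58.1 FPKM, and 40.9 and 52.5 FPKM.

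Of 8 tested interferon regulatory factors 1 rose and all 8 fold changes were positive, with a median of 0.32 on the log2 scale. The shares of all tested entries were 2.81% higher and 4.14% lower. Irf5 rose 1.61-fold from 44.5 to 71.6 FPKM (q = 0.0104 in the authors' deposited table). Irf8, Irf4 and Irf1 were 514 and 672 FPKM, 85.0 and 111 FPKM, and 81.6 and 98.8 FPKM. Of 17 tested genes that sense nucleic acids or relay that signal, 1 rose and 1 fell, with a median of 0.27. The adaptor Traf6 rose 1.51-fold to 33.9 FPKM (q = 0.0354 in the authors' deposited table). The RNA receptor Tlr8 fell 3.95-fold from 1.199 to 0.304 FPKM (q = 0.00160 in the authors' deposited table), or by 0.75 on the log2 scale with a pseudocount of 1 FPKM. Unc93b1, Tmem173 and Tlr7, the most abundant, were 286 and 351 FPKM, 51.4 and 63.9 FPKM, and 41.4 and 48.4 FPKM.

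A wider list of 94 other interferon-induced genes included 77 that were tested. There were 5 that rose and 3 that fell, with a median log2 fold change of 0.19 and 75.3% positive values. Of all tested entries 2.81% were higher, 4.14% were lower and 53.4% were positive. The risen genes were Gbp5, Gbp9, Mndal, Gm14446 and Ifi30, a lysosomal thiol reductase that went from 106 to 183 FPKM. The fallen genes were Ifitm6, 3.68-fold from 123 to 33.4 FPKM, Slfn1, 2.73-fold from 8.998 to 3.30 FPKM, and Ifitm3, 1.82-fold from 50.7 to 27.8 FPKM. Its most abundant genes, B2m, Ly6e and Bst2, were 3474 and 4445 FPKM, 873 and 1268 FPKM, and 578 and 670 FPKM and were not called. So 5 of the 9 tested Gbp genes of the table rose, with a median of 0.65, while 0 of 7 tested oligoadenylate synthetase genes and 0 of 7 immunity-related GTPases did. All 7 fold changes were nevertheless positive in each of the latter families, with medians of 0.22 and 0.33 on the log2 scale. Those of the immunity-related GTPases ran from 0.02 for Iigp1 to 1.05 for Tgtp1. Tgtp1 was low, at 0.478 and 0.992 FPKM, and was not called (q = 0.0977 in the authors' deposited table). The difference between these families was not tested.

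**Figure D5:**
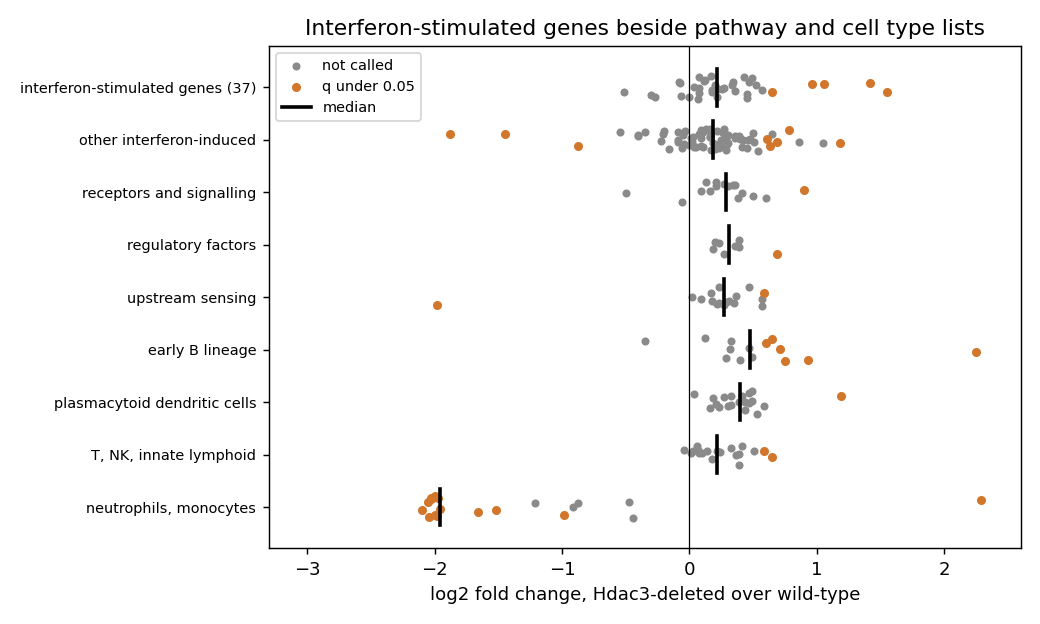
Log2 fold change of Hdac3-deleted over wild-type for tested genes of the member list, 4 pathway lists and 4 cell type lists (1 point per gene, called genes in orange, black bars are medians, vertical scatter within a row has no meaning). The medians are 0.22 for the members, 0.19 to 0.32 for the pathway lists, 0.22 to 0.48 for the 3 lymphoid and dendritic lists and -1.96 for neutrophils and monocytes.

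Markers of other cell types were detected in the sort, and in such mixed RNA fewer cells of a type and less RNA per cell cannot be told apart. Of all tested entries 2.81% were higher and 4.14% were lower. Early B-lineage markers, which define the labelled population, were all tested, none was at 0, and 6 of 14 were higher. Their summed level was 4205 FPKM in the wild-type group and 5423 FPKM in the Hdac3-deleted group. Sums over lists of different genes do not measure the share of a cell type in the sort. Plasmacytoid dendritic cell markers summed to 3862 and 4945 FPKM over 20 genes. All 20 of their fold changes were positive, with a median of 0.40, and 1 gene, Cd209d, was called, while none was at 0. Siglech was 420 and 590 FPKM. Of the 20 genes, 1 is also among the regulatory factors, 1 among the wider interferon-induced genes and 2 among the sensing genes. Neutrophil and monocyte markers summed to 11153 and 2780 FPKM, with 13 of 19 lower, 1 higher and a median of -1.96. T, NK and innate lymphoid markers summed to 890 and 1023 FPKM, with 2 of 19 higher and a median of 0.22, and no marker was at 0. The part of these cell types in the values of the interferon-stimulated genes was not tested. Hdac3 itself fell from 46.8 to 22.03 FPKM (q = 0.00160 in the authors' deposited table), a value over the whole gene. The null allele, deletion of the conditional allele, exons outside the deleted part and other cells of the sort cannot be told apart in it.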

How the data were processed

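RNA was sequenced from 4 libraries, 2 per genotype, grouped by the genotype in the titles; p-values rest on pools of 2 mice. Per the submitters' processing notes, Trimmomatic 0.32, TopHat2 2.0.11 and Cuffdiff 2.1.1 were used with the mm10 build. No source used here states their options, the annotation, strand handling or scaling. The authors deposited 1 FPKM value per gene and genotype, named by the file headers, with Cuffdiff's test statistic, a score, and its p-value and q-value over all tested entries. A floor of 5.00e-05 in the p-value held for 396 entries. Depth per library is unknown; the commonest ratio between genotypes, 1.14 in 72 entries within 0.0005 log2 units, is the only hint of relative depth.

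No pseudocount entered the fold changes. The standard error behind each interval was the log2 fold change divided by the authors' statistic. The members and lists were chosen with earlier results of these data known. Any member could be named, and of other lists up to 8 called genes and the 3 most abundant; paralogues, the genes flanking the chromosome 3 cluster, Ifnar1, Ifnb1, Stat2, Irf9 and Siglech were named after their values were seen. Older symbols were matched through RefSeq, and erythroid markers, with 1 of 7 tested genes lower, were also checked. Positions count from 1. Promoters are from RefSeq, transcripts from GENCODE. The adjustment used for the normal approximation was run on simulated statistics drawn from a normal distribution. That run cannot show whether the authors' statistic follows such a distribution. Alternatives varied thresholds, low-value filters, shared loci, pseudocounts, centring and motif windows. The software was matplotlib 3.10.9, scipy 1.17.1 and pandas 2.3.3 under Python 3.11.15.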

Additional observations from a re-analysis of the deposited data

How the results depend on the processing

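The count of 5 risen members was 4 at a q threshold of 0.01 and 4 with a normal approximation to the authors' statistic, both times without Gbp3. It was 5 at a threshold of 0.1, with a minimum of 1.5-fold, with at least 1 FPKM in both genotypes and among loci not shared with another entry, and 0 members fell under each of these. An unadjusted p under 0.05, added after the data were seen, gave 10 higher members and 1 that was lower. Over all tested entries the calls went from 356 higher and 525 lower to 189 and 345 at 0.01, to 136 and 335 with the normal approximation and to 1035 and 1135 at the unadjusted p. The members' median log2 fold change stayed between 0.18 and 0.22 over 6 alternatives, and centring on the median tested entry, 0.03, changed the sign of 0 members. The ISRE core was found in 13 members with 150 bases before the start alone and in 12 with a C required after the last GAAA. No paired analysis was possible because the table gives 1 value per genotype, and for the same reason no library could be left out. Unknown depth and 2 libraries per genotype limit what could be detected, and missing the threshold does not show that a gene is unchanged.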
